A study of Mus musculus with 6 samples.

Results

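The genes described here are 86 genes of cultured mouse spermatogonia, chosen by names of cytosolic ribosomal protein genes from the 32285 rows of a raw count table. Names were kept that begin with Rpl or Rps followed by a digit, together with Rplp0, Rplp1, Rplp2 and Rpsa. Of 101 such names, 10 that belong to the S6 kinases (Rps6k) and 5 that carry the pseudogene suffix -ps were left out. A minimum of 10 counts summed over the 6 libraries removed none of the remaining 86. By name these comprise 34 small subunit and 52 large subunit genes. The 34 include Rps19bp1, which encodes a binding partner of Rps19 and not a ribosomal protein. All 86 are called the family or ribosomal protein genes below. The member nearest to that minimum was Rps27rt with 94 counts in all, and the next was Rpl3l with 1139. All 86 passed the filter on low counts that left 15104 genes for testing.

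The cells were germline stem (GS) cells, spermatogonia from testes of 2 to 3 day old mice that were expanded in culture. Both groups were of DBA/2 strain and carried the green fluorescent transgene Tg14(act-EGFP-OsbY01), which came from a C57BL6 line. Both were cultured on mouse embryonic fibroblast feeders with GDNF and FGF2, and both were frozen for 6 months, aboard the International Space Station (Space) or on Earth (Ground). RNA was taken on the day after thawing, without passage, and there were 3 libraries per group. The study describes 3 lines per group, but no label says which libraries share a line or a culture, so p-values measure only the spread between these libraries, which may be technical. Groups follow the titles of the libraries. The treatment field names the other group in all 6 of them, and each direction given below would turn if that field were right.

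Library totals ran from 19015985 to 24110916 counts. Germ cell markers were present at 2924 to 3082 CPM (read counts scaled by library size) summed over 8 genes, and none of the 8 was at 0. Fibroblast markers, summed over 10 genes, were at 692 to 718 CPM in the Ground libraries and 572 to 724 CPM in the Space libraries. All 10 had lower fitted levels in Space, with a median log2 fold change of -0.36. In edgeR's quasi-likelihood test 3 of the 10 had an unadjusted p under 0.05, against 0.609% of all tested genes, and 0 passed after adjustment. The groups did not overlap in 2 of the 10, against 3.59% of all tested genes. Summed markers of other cells reached at most 27.8 CPM for Sertoli cells, 22.1 CPM for macrophages and 5.04 CPM for Leydig cells. Of these markers Hsd3b1 was at 0, and Cyp17a1, Adgre1, Csf1r and Lyz2 had under 10 counts in every library. Feeder fibroblasts also make ribosomes, so each value below is a sum over germ cells, fibroblasts and any other cells present. The part of each cell type in it was not tested. Fewer cells of one type and less RNA per cell cannot be told apart in such bulk libraries. Ground-3 and Space-1 stood apart from the other 4 libraries in the ribosomal protein genes, as described below. Group differences of the family and the SDs of the most variable genes are therefore also given without these libraries.

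The cytosolic ribosome consists of a small subunit, which holds the mRNA and reads codons, and a large subunit, which joins amino acids and carries the exit tunnel of the new protein. Each subunit is built in the nucleolus from rRNA and one copy of most of its proteins, and surplus proteins are degraded. Mammalian ribosomal protein mRNAs typically start at a C followed by a run of C and T, the 5′ terminal oligopyrimidine (TOP) motif, through which mTOR and LARP1 control their translation. Spermatogonia growing under GDNF and FGF2 divide, and dividing cells spend much of their transcription on these genes. The genome also holds many processed copies of them, and a few copies are expressed genes with roles in germ cells or muscle.

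The annotated starts were read for the TOP motif. RefSeq promoter entries (GRCm38.p6) were found for 66 of the 86 genes. Some genes have several annotated starts there, and each was searched. A C at a start followed directly by at least 4 further C or T, read on the strand of the gene, was present at 1 start or more in 14 of these 66 (21.2%). The same run was present in 3.01% of 27025 genes with an entry and in 3.07% of 11607 tested genes. It was found in 7 of 26 small subunit genes (26.9%) and in 7 of 40 large subunit genes (17.5%). A missing run says only that these letters do not stand at the annotated starts. Shown here, for the start that has the run, are 10 bases before the start and the first 20 bases from it, with the run in capitals, for the genes with the longest runs, for Rps6, Rpl35a and Rplp2, which return below, and for Rps27 with its retrocopy Rps27rt.
Rpl15 (chr14:18270967-18270996, - strand): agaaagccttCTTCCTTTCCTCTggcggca
Rpl35 (chr2:39005112-39005141, - strand): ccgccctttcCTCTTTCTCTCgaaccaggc
Rps10 (chr17:27635225-27635254, - strand): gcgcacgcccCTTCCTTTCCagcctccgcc
Rps6 (chr4:86857348-86857377, - strand): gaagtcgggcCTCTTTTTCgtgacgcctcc
Rpl35a (chr16:33056472-33056501, + strand): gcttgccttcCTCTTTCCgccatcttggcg
Rplp2 (chr7:141447641-141447670, + strand): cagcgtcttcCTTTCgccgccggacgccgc
Rps27 (chr3:90213629-90213658, - strand): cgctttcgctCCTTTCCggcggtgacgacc
Rps27rt (chr9:114982720-114982749, - strand): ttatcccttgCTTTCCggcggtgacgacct

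In Rpl15 the run spanned 13 bases, in Rpl35 11 and in Rps10 10, while Rplp2 had only the minimum of 5. The 14 genes with the run had a median level of 610 CPM per kb of transcript, against 543 CPM per kb in the 52 without it. Their median SD of log2 CPM over the 6 libraries was 0.068 against 0.075, and their median log2 fold change between Space and Ground was -0.016 against -0.013. These are descriptions of overlapping sets of values, with no test.

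The family as a whole did not differ between the groups beyond the spread of the libraries. Its share of all counts in the Ground libraries, in the order of their numbers, was 3.98% (3.97 to 3.98, a 95% Wilson interval), 3.75% (3.74 to 3.75) and 4.17% (4.16 to 4.18). The Space libraries had shares of 4.22% (4.21 to 4.23), 3.93% (3.92 to 3.94) and 3.96% (3.96 to 3.97). These intervals treat each read as an independent draw and cover counting error only. Reads without molecular identifiers are not independent molecules, so the intervals may be too narrow even for that. The groups overlapped, with 3.96% ± 0.211 for Ground and 4.04% ± 0.158 for Space (SD, n = 3). The difference was 0.074 percentage points, and 0.086 without Ground-3 and Space-1. Mitochondrial transcripts took between 2.51% and 11.5% of the counts and are part of this total. Outside them the share was 4.102%, 4.23% and 4.42% in the Ground libraries and 4.33%, 4.23% and 4.08% in the Space libraries. On that scale the difference, Space minus Ground, was -0.040 percentage points, so its direction turned with the scale. Ground-3 and Space-1 were the highest on either scale.

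The balance between the subunits was closer still. Summed counts of the small subunit genes divided by those of the large subunit genes gave 0.713, 0.707 and 0.699 (Ground) and 0.698, 0.711 and 0.711 (Space), again in the order of the library numbers, which holds for all such values below. On the log2 scale this was -0.50 ± 0.014 for Ground and -0.50 ± 0.015 for Space (SD, n = 3), a difference of 0.00020. The ratio was lowest in Space-1 and Ground-3, the libraries with most ribosomal protein counts. Without the 5 genes with most counts in each subunit the difference was 0.00090, without the paralogs described below it was 0.00019, and without Ground-3 and Space-1 it was 0.0017.

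**Figure D1:**
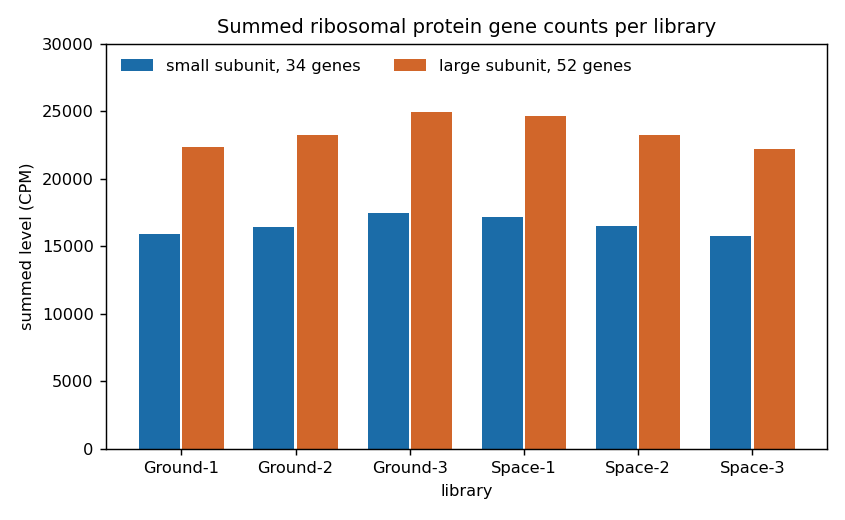
Summed level of the 34 small and 52 large subunit genes in each of the 6 libraries, in CPM on an axis that starts at 0. Large subunit sums run from 22240.3 to 24965 CPM and small subunit sums from 15806 to 17457 CPM, and both are highest in Ground-3 and Space-1.

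Levels of single genes were compared per length, as CPM per kb of the principal transcript in GENCODE M21, averaged over the 6 libraries with the SD over them. The median was 579 CPM per kb over all 86 genes, 674 in the small and 530 in the large subunit. In the small subunit Rps28, which contacts mRNA near the exit site, was highest at 1577 ± 67.8 CPM per kb (SD, n = 6). Rps15, whose tail reaches towards the decoding site, followed at 1301 ± 38.1. In the large subunit Rplp2 led with 1553 ± 36.8, before Rpl4, which lines the exit tunnel, at 1378 ± 52.03 and Rplp1 at 1363 ± 26.1. The last pair did not differ beyond their spread per kb of transcript.

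At the low end stood core ribosomal protein genes beside a retrocopy, a muscle paralog and a binding protein. In the small subunit Rps27rt, a retrocopy of Rps27, had 1.87 ± 0.536 CPM per kb. Rps19bp1, which encodes a binding partner of Rps19 and not a ribosomal protein, had 29.1 ± 2.09. Rps4x, the X-linked gene of a small subunit protein, was the lowest core gene of its subunit at 115 ± 15.3. In the large subunit Rpl3l, a muscle paralog of Rpl3, had 6.17 ± 0.314, Rpl39, which encodes one of the smallest ribosomal proteins, had 78.7 ± 12.9, and Rpl29 had 91.1 ± 10.9. Without paralogs and the binding protein the remaining 77 genes spanned 20.04-fold, from Rpl39 to Rps28.

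The order depended on the length used. Ranks by transcript length and by coding length correlated across the 86 genes with Spearman's rho of 0.767, and genes are not independent replicates. The principal transcript of Rps20 has 3706 bases for 357 coding bases, so its level was 139 CPM per kb of transcript but 1447 per kb of coding sequence. Per coding length Rps24 led the small subunit with 2319 CPM per kb. Rpl41, whose protein is a very short peptide, led the large subunit with 7545 CPM per kb. Median levels per coding length were 1003 CPM per kb in the small and 822 in the large subunit, so the small subunit median was the higher under both lengths.

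**Figure D2:**
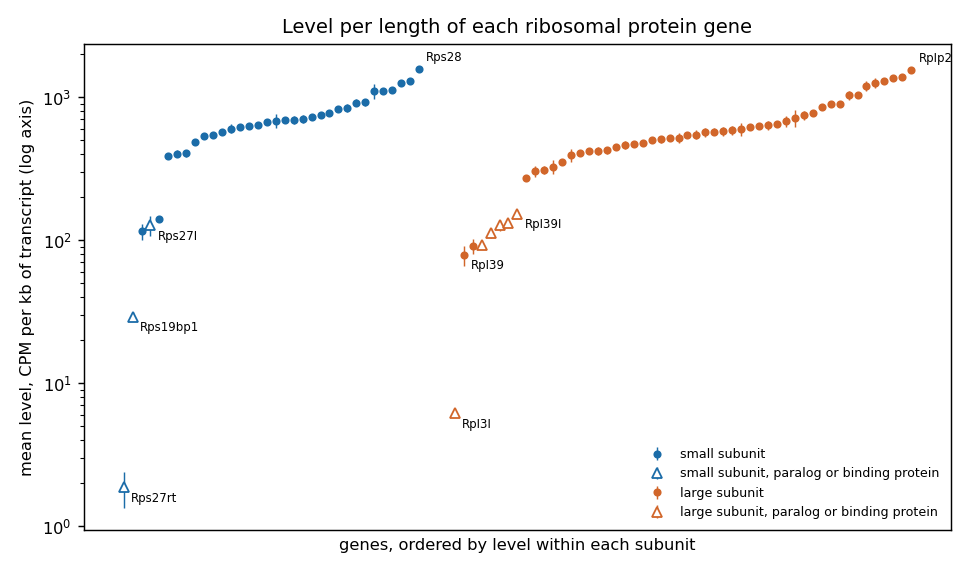
Mean level of each gene over the 6 libraries in CPM per kb of transcript on a log axis, ordered within each subunit, with bars for the SD over libraries and open triangles for paralogs and the binding protein. Most core genes lie between 272.8 and 1577 CPM per kb, while Rps27rt lies at 1.87 and Rpl3l at 6.17.

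Levels were also read for groups of proteins with a shared task. The P stalk, which recruits the elongation factors, is made of Rplp0 and of pairs of Rplp1 and Rplp2. Rplp0 had 473 ± 16.1 CPM per kb, below both partners. Rpl5 and Rpl11 carry the 5S rRNA into the large subunit and bind MDM2 when ribosome assembly fails. They had 311 ± 19.6 and 325 ± 36.98 CPM per kb of transcript, which did not differ beyond their spread. Per kb of coding sequence they had 714 and 508 CPM, so their closeness depended on the length used. Rps6, the target of the S6 kinases, had 602 ± 45.3 CPM per kb of transcript. Rps19, the gene most often mutated in Diamond-Blackfan anaemia, had 669 ± 19.3. Rpsa, also known as the laminin receptor, had 539 ± 19.02, and Rps27a, which is made as a fusion with ubiquitin, had 819 ± 30.5.

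Ribosomal components whose names the rule does not match were read alongside. Fau, which encodes eS30 as a fusion to a ubiquitin-like protein, was at 265, 262 and 273 CPM (Ground) and 272, 255 and 263 CPM (Space). Rack1, the scaffold on the small subunit head, was at 887, 894 and 1028 CPM (Ground) and 1008, 879 and 865 CPM (Space). Both were highest in Ground-3 and Space-1, with a smaller gap in Fau than in Rack1.

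Ribosomal protein genes share sequence with many processed copies, which bears on how reads were assigned. GENCODE M21 names 300 genes as ribosomal protein pseudogenes, of which 5 have a row in the count table, with 0 to 22 counts in any library. For each gene, windows of 76 bases, the read length in the study's methods, were compared with annotated transcripts of genes elsewhere in the genome. The median share of windows found elsewhere without mismatch was 47.9% per gene. It was above 50% in 37 genes and highest for Rps27 with 98.5%. Rps3, Rps19bp1, Rpl3l and Rpl39l were among the genes that shared no window. Rpl7a shared windows with 64 other genes, Rpl21 with 61 and Rps2 with 50. How reads that map to several places were counted is not given in the sources used here, so levels of genes with a large shared part are uncertain. Across the 77 genes without paralogs the shared part and the level had a Spearman's rho of -0.020 per transcript length and -0.44 per coding length, so the relation turned on the length chosen. In addition, 24 genes overlap a gene on the other strand and 35 a gene on the same strand. Whether the counting used strand is likewise not given.

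Expressed paralogs were compared with their parent genes, each per kb of transcript, in every library. Rpl39l, a paralog of the X-linked Rpl39 that is enriched in male germ cells, was above its parent. It reached 209.8%, 224% and 148% (Ground) and 148%, 223% and 242% (Space) of the level of Rpl39. The ratio was lowest in Ground-3 and Space-1, where Rpl39 was high and Rpl39l low. Rpl39l itself was at 84.9, 89.1 and 78.03 CPM (Ground) and 76.4, 87.4 and 87.1 CPM (Space). Per coding length, which is 153 bases in both genes, Rpl39l had 174% of Rpl39.

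Rpl10l, an intronless copy that replaces the X-linked Rpl10 in meiosis, where the X chromosome is silenced, was the next highest. It stood at 36.4%, 34.1% and 30.6% (Ground) and 31.7%, 36.6% and 36.02% (Space) of Rpl10. Its levels of 96.7, 97.4 and 92.3 CPM (Ground) and 90.8, 98.3 and 96.2 CPM (Space) overlapped between groups. Only 0.105% of its windows were shared elsewhere, against 91.9% of those of Rpl10, so the parent is the less certain term of this ratio.

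The other paralogs of the large subunit lay well below their parents in every library. Rpl36al, an intronless copy of the X-linked Rpl36a, stood at 27.3%, 27.03% and 28.5% (Ground) and 28.02%, 26.4% and 27.2% (Space). Rpl7l1, a more distant relative of Rpl7, stood at 24.7%, 23.9% and 22.1% (Ground) and 21.8%, 23.3% and 23.6% (Space). Rpl22l1, which can take the place of Rpl22 in the ribosome, stood at 20.7%, 20.3% and 20.6% (Ground) and 20.8%, 20.7% and 19.9% (Space). Of these 3 ratios that of Rpl22l1 moved least between libraries. Rpl3l, a gene of striated muscle, reached only 1.85%, 1.61% and 1.41% (Ground) and 1.38%, 1.46% and 1.80% (Space) of Rpl3, although it was counted in every library. Among the parents Rpl36a shared 84.6% of its windows elsewhere, Rpl3 83.2%, Rpl7 40.4% and Rpl22 6.52%. Among the paralogs Rpl22l1 shared 49.1%, Rpl36al 37.7%, Rpl7l1 4.13% and Rpl3l none. These ratios are therefore uncertain to differing degrees.

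In the small subunit Rps27l, a paralog of Rps27 that p53 can induce, stood at 14.5%, 17.6% and 20.5% (Ground) and 20.2%, 17.4% and 14.7% (Space) of Rps27. Its level moved between libraries as described below, while Rps27 ranged only from 231 to 262 CPM. Rps27rt stood at 0.250%, 0.277% and 0.262% (Ground) and 0.136%, 0.261% and 0.368% (Space) of Rps27, from 9 to 25 counts per library. Rps27 shared nearly all of its windows with other genes and Rps27rt shared 90.3%, so these ratios are uncertain. Rps4l, a relative of Rps4x, was not analysed here. Rps19bp1 had 3.72% to 4.68% of the level of Rps19.

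**Figure D3:**
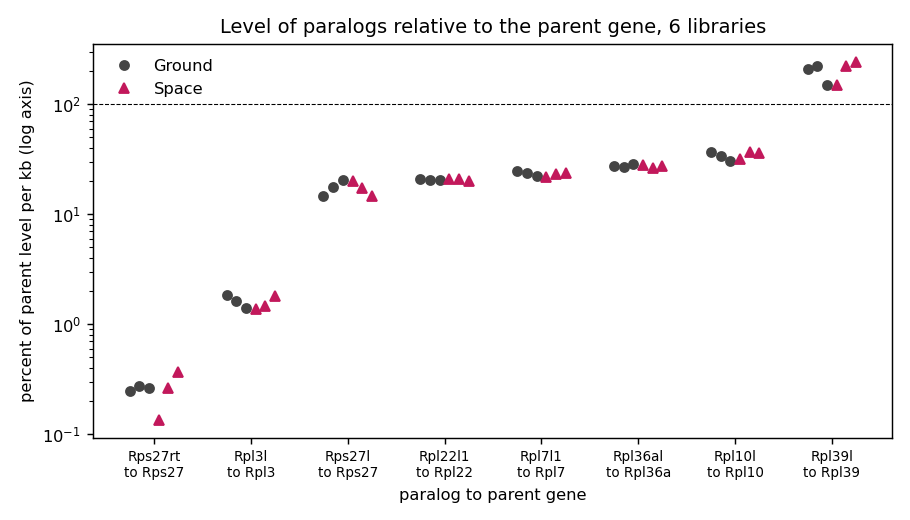
Level of each paralog as a percent of its parent gene, both per kb of transcript, in the 3 Ground libraries (circles) and the 3 Space libraries (triangles) on a log axis, with a dashed line at 100%. Only Rpl39l lies above the line, at 148% to 242%, and the groups overlap for every pair.

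Single libraries differed from each other in a pattern that ran through most of the family. Ground-3 was the highest library for 49 of the 86 genes and Space-1 for 23, while Space-3 was the lowest for 44 and Ground-1 for 22. Ground-3 and Space-1 were the pair of highest libraries for 63 genes (73.3%), against 23.5% of all tested genes. They were so for 24 small subunit genes (70.6%) and for 39 large subunit genes (75%). Ground-1 and Space-3 were the pair of lowest libraries for 57 genes (66.3%), against 19.7% of all tested genes. Summed over the family, the level was 42422 CPM in Ground-3 and 41877 CPM in Space-1, and 38046 to 39799 CPM in the other 4 libraries. This order holds for libraries of both groups and was read from the values, so it carries no test.

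Libraries were thus closest to one of the other group. The mean absolute difference in log2 CPM over the 86 genes was 0.034 between Ground-1 and Space-3, 0.036 between Ground-2 and Space-2 and 0.047 between Ground-3 and Space-1. For the remaining pairs of libraries it was 0.063 to 0.181. Over all tested genes the median absolute difference was also smallest in the same pairs, at 0.069, 0.091 and 0.085. Whether these libraries share a line or a culture is not stated.

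Some genes moved far more than others. Rpl39 had an SD of log2 CPM of 0.228 over the 6 libraries, with 45.04, 44.2 and 58.7 CPM (Ground) and 57.4, 43.5 and 40.03 CPM (Space). Both high values are those of Ground-3 and Space-1. Rpl7a, another protein of the large subunit, had an SD of 0.191, with 581, 632 and 764 CPM (Ground) and 769.7, 622 and 570.2 CPM (Space). Rps27l had an SD of 0.225, with 54.3, 58.7 and 77.7 CPM (Ground) and 73.4, 61.4 and 53.4 CPM (Space). Ground-3 was 1.45 times Space-3 in Rps27l, and the groups overlapped in all of these genes. Rps4x, at 97.8, 114 and 129.7 CPM (Ground) and 124, 115 and 90.9 CPM (Space), and Rps2, at 962, 1083 and 1282 CPM (Ground) and 1209, 1074 and 963 CPM (Space), followed the same order. Without Ground-3 and Space-1 the SD fell to 0.075 in Rpl39, 0.073 in Rpl7a, 0.094 in Rps27l and 0.095 in Rps2, but was still 0.168 in Rps4x, and the median over the family was 0.045 in place of 0.073. Rps27rt had the largest SD over the 6 libraries, 0.404, but on few counts, with 0.700, 0.692 and 0.745 CPM (Ground) and 0.371, 0.693 and 1 CPM (Space).

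Other genes hardly moved. Rps16, which has its tail at the peptidyl site, had an SD of 0.025, with 589.8, 600.5 and 587 CPM (Ground) and 575, 586 and 603 CPM (Space). Rpl35a had an SD of 0.026, with 321, 324 and 311 CPM (Ground) and 314, 325 and 315 CPM (Space). In neither gene were Ground-3 and Space-1 the highest libraries, and in Rps16 Space-1 was the lowest.

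In 4 genes Ground-3 and Space-1 were the pair of lowest libraries, namely Rps12, Rpl35a, Rpl10l and Rpl39l. That is 4.65% of the family, against 23.5% of all tested genes. Rps12, a protein of the small subunit beak, was at 581, 555 and 521 CPM (Ground) and 526, 569 and 573 CPM (Space). These genes were named after their values were seen.

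**Figure D4:**
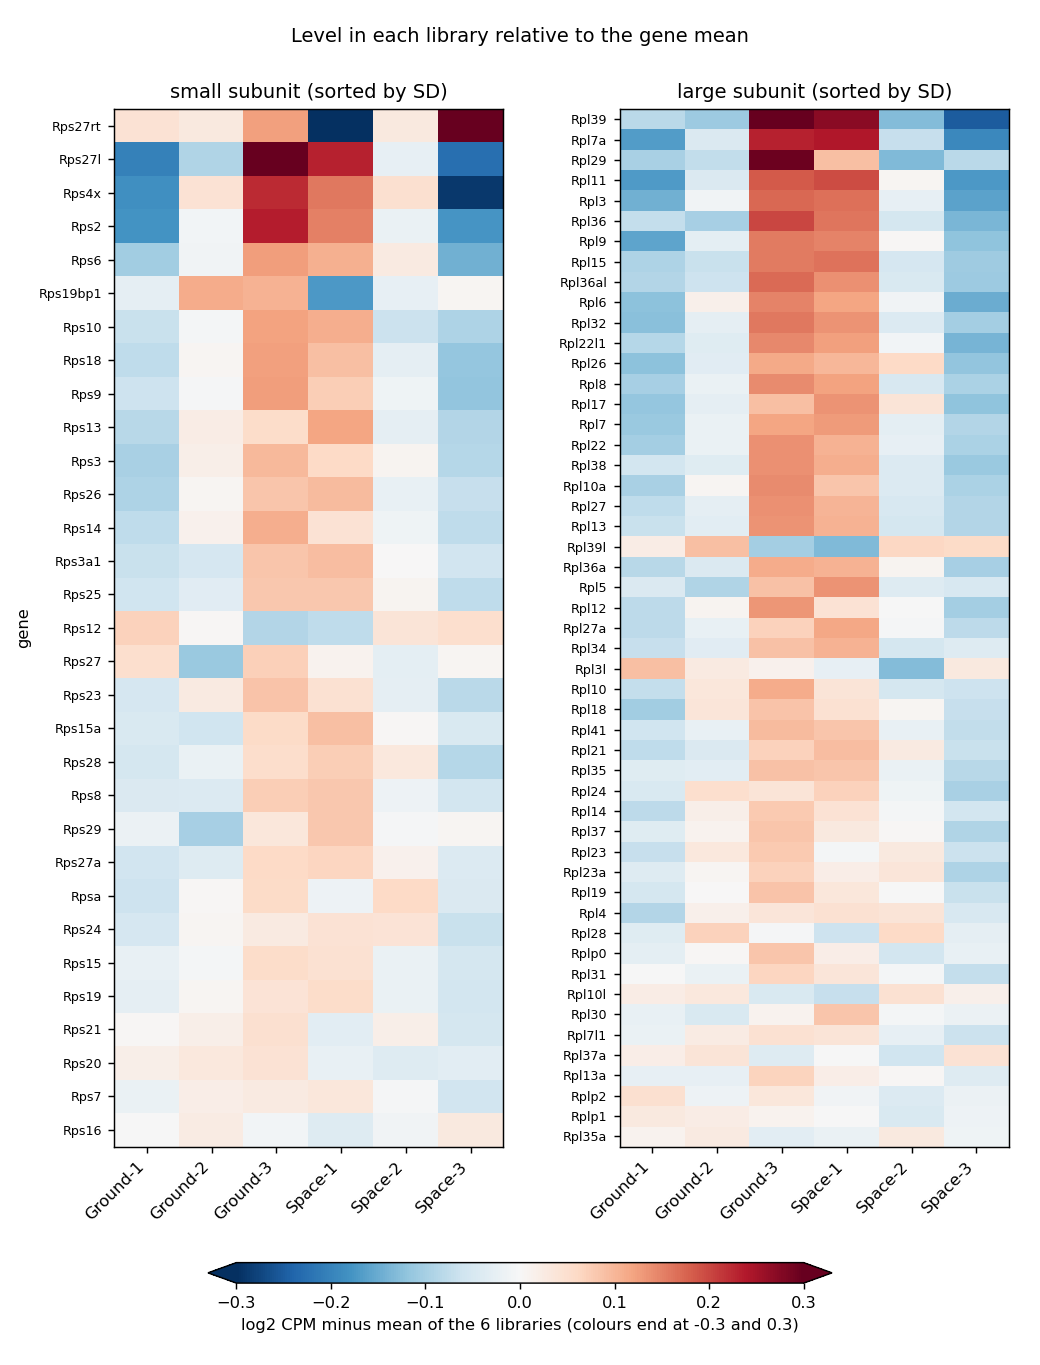
Log2 CPM of 82 of the 86 ribosomal protein genes in each library minus the mean of the gene over the 6 libraries, with the small subunit on the left and the large subunit on the right, sorted by SD from top to bottom. The columns of Ground-3 and Space-1 are mostly red (above the mean) and those of Ground-1 and Space-3 mostly blue, with the reverse in Rpl39l and Rps12.

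The median SD of log2 CPM was 0.073 over the 86 genes, 0.066 in the small and 0.077 in the large subunit. It was 0.151 over all tested genes, but 0.074 over the 2064 tested genes with a mean log2 CPM of at least 7, so the family varied about as much as other well expressed genes. The highest library was less than 1.2 times the lowest in 67 of the 86 genes. Across the 86 genes the SD and the shared part had a Spearman's rho of 0.329, a description over genes that share libraries.

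A few regulators were read for the same order of libraries. Mycn, a MYC family transcription factor that drives ribosome production, was at 105, 119 and 172 CPM (Ground) and 174, 124 and 102 CPM (Space). It was highest in Space-1 and Ground-3, and it was named after its values were seen. Myc was at 3.09, 1.44 and 0.877 CPM (Ground) and 0.824, 1.33 and 2.24 CPM (Space), lowest in the same libraries. Larp1, which binds TOP mRNAs, was at 468, 451 and 500.1 CPM (Ground) and 546, 475 and 458 CPM (Space), and Mtor was at 415, 381 and 349 CPM (Ground) and 382, 395 and 405 CPM (Space). The part of these genes in the order of the libraries was not tested. Germ cell markers ran the other way, with summed levels of 2924 CPM in Ground-3 and 2986 CPM in Space-1, the lowest, and of 3077 CPM in Ground-1 and 3082 CPM in Space-3, the highest. The sum of the Sertoli markers was 27.8, 25.3 and 24.5 CPM (Ground) and 25.3, 26.4 and 26.9 CPM (Space), with Space-1 level with Ground-2. The number of genes with a count was highest in Ground-1 and Space-3, at 20316 and 20264, against 19528 to 19560 in the others. The part of these measures in the order was not tested. Fibroblast markers did not follow it, with a summed level of 718 CPM in Ground-3 and 572 CPM in Space-1, the highest of the Ground and the lowest of the Space libraries.

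The main comparison asked whether storage on the space station was followed by a change in these genes. None of the 86 genes passed edgeR's quasi-likelihood test at an adjusted p under 0.05 (Benjamini-Hochberg), and no tested gene did (0% of 15104). None of the 86 had an unadjusted p under 0.05 either, against 92 of all tested genes (0.609%), and the other tools gave the same 0 at both thresholds for the family. The smallest p in the family was 0.207. Log2 fold changes, Space minus Ground, ran from -0.13 to 0.054. That p and the -0.13 were those of Rps19bp1. Over the 77 genes without paralogs and the binding protein, the smallest p in edgeR's test was 0.230. Their lowest log2 fold change was -0.090. The groups did not overlap in 2 genes, both lower in Space, against 3.59% of all tested genes in either direction and 1.98% lower in Space. These were Rplp1 and Rps20.

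Fitted levels were lower in Space for 60 of the 86 genes, where 51.3% of all tested genes were lower. Of the 2064 tested genes with a mean log2 CPM of at least 7, 40.7% were lower. In the family the count was 21 of 34 in the small and 39 of 52 in the large subunit. The median log2 fold change was -0.013 over the family, -0.011 in the small and -0.013 in the large subunit. It was -0.0020 over all tested genes and 0.0084 over the 2064 well expressed ones. The direction of the family turned without Ground-3, where 21 of 86 were lower with a median of 0.037, and without Space-3, where 25 were lower with a median of 0.022. It held without any of the other 4 libraries, from 54 lower with a median of -0.0087 (without Space-2) and 62 with -0.025 (without Ground-2) to 75 with -0.050 (without Ground-1) and 75 with -0.052 (without Space-1). Without both Ground-3 and Space-1 46 of 86 were lower with a median of -0.0054. Scaled by library totals alone, 16 of 86 were lower with a median of 0.023, while the median of all tested genes rose to 0.033.

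The smallest p values on either side came with small differences, given here with the standard error (SE) and 95% interval of edgeR's fit. Rps29, a zinc-binding protein of the small subunit, was at 188, 177 and 194 CPM (Ground) and 201, 189 and 191 CPM (Space). Its log2 fold change was 0.054 ± 0.058 (SE, 95% interval -0.081 to 0.19), with 0.019 to 0.090 when 1 library was left out (lowest without Ground-2). Rpl30 was at 304, 299 and 311 CPM (Ground) and 328, 308 and 306 CPM (Space), a log2 fold change of 0.041 ± 0.053 (SE, 95% interval -0.083 to 0.16), which was 0.0076 without Space-1. Rpl21 was at 409, 418 and 452 CPM (Ground) and 459, 439 and 412 CPM (Space), a log2 fold change of 0.034 ± 0.066 (SE, 95% interval -0.12 to 0.19), which turned to -0.0042 without Space-1. In each of these the groups overlapped.

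On the lower side Rps19bp1 was at 23.9, 26.4 and 26.2 CPM (Ground) and 21.6, 23.98 and 24.5 CPM (Space). Its log2 fold change was -0.13 ± 0.092 (SE, 95% interval -0.34 to 0.087), and Space-1 was the lowest library. Without Space-1 it was -0.073, and without both Ground-3 and Space-1 it was -0.049. Rps20, a protein of the small subunit head, was at 523, 528 and 532 CPM (Ground) and 509, 503 and 505 CPM (Space), with all Space libraries below all Ground libraries. The difference was -0.062 ± 0.048 (SE, 95% interval -0.17 to 0.049). Rplp2 was at 676, 647 and 669 CPM (Ground) and 649, 635 and 646 CPM (Space), a log2 fold change of -0.046 ± 0.050 (SE, 95% interval -0.16 to 0.071). All of these had the same adjusted p of 0.999924 in edgeR's test.

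The genes of the P stalk had lower fitted levels in Space under every scaling, filter, tool and left-out library tried, but none passed the test. The log2 fold change was -0.039 for Rplp0, -0.041 for Rplp1 and -0.046 for Rplp2. Rplp1 was at 694, 691 and 685 CPM (Ground) and 679.9, 659 and 673 CPM (Space), and its groups were apart by the gap between Space-1 and Ground-3. Rpl5 and Rpl11, the partners of 5S rRNA, had log2 fold changes of 0.032 and 0.019, and neither direction held when libraries were left out. Both were below 0 without Space-1 and without Ground-2, and 1 of the pair was without Ground-1. Rpl5 was at 616, 596 and 674 CPM (Ground) and 697, 618 and 614 CPM (Space) and Rpl11 at 239.7, 262 and 306 CPM (Ground) and 309, 271 and 239 CPM (Space). The smallest unadjusted p among these 5 genes in edgeR's test was 0.392.

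Other sets within the family were divided. Of 10 genes in which mutations cause Diamond-Blackfan anaemia, 5 were higher and 5 lower in Space, with a median log2 fold change of -0.0013. Of 8 genes of proteins around the exit tunnel, 3 were higher and 5 lower, with a median of -0.018. Among Rps6, Rps19, Rpsa and Rps27a the log2 fold changes were -0.0062, -0.013, 0.0012 and 0.023. All 8 paralogs and the binding protein had lower fitted levels in Space, from -0.13 for Rps19bp1 to -0.0053 for Rpl10l. Scaled by library totals 3 of these 9 were lower, and without both Ground-3 and Space-1 4 were. For Rpl39l the difference was -0.0061, with a 95% interval from -0.19 to 0.18.

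**Figure D5:**
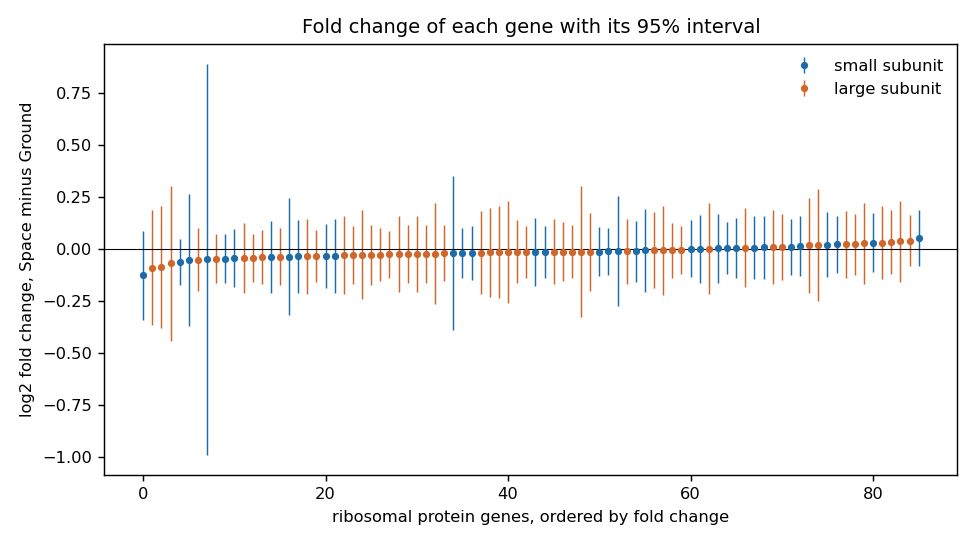
Log2 fold change of each ribosomal protein gene, Space minus Ground, ordered from lowest to highest, with the 95% interval from edgeR's fit and colours for the subunits. All 86 intervals include 0, and the interval of Rps27rt is the widest.

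The intervals show what a fit with the group as its only factor could resolve in these libraries. This fit does not model the closeness of libraries across groups described above. Differences between those pairs therefore stay in the spread behind each SE, interval and p-value. The 95% interval of the fold change lay within 1.2-fold in either direction for 74 of the 86 genes (86.0%), 28 of the small and 46 of the large subunit. The same held for 34.3% of all tested genes and for 83.7% of those with a mean log2 CPM of at least 7. It lay within 1.1-fold for 4 of the 86 genes (4.65%), against 1.89% of all tested genes and 9.74% of those well expressed genes. It lay within 1.5-fold for 85, with Rps27rt as the exception. Genes whose intervals reached beyond 1.2-fold included Rps2, Rps4x, Rps19bp1, Rps27l, Rps27rt, Rpl3l, Rpl7a, Rpl11, Rpl29, Rpl36 and Rpl39. For these the interval held both no change and a change of 1.2-fold, up or down. Its place as well as its width set this, as in Rps19bp1.

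Genes that make or use ribosomes were read from lists, in the same test. Of 20 translation factors 10 were higher and 10 lower in Space, with a median log2 fold change of 0.00036. Of 47 genes of ribosome assembly 29 were higher and 18 lower, with a median of 0.0025. Of 17 genes of mTOR, LARP1 and MYC signalling 11 were higher and 6 lower, with a median of 0.014. Of 78 mitochondrial ribosomal protein genes 36 were higher and 42 lower, with a median of -0.0024. No gene of these lists passed the test, and none had an unadjusted p under 0.05. Eef1a1, the elongation factor that brings aminoacyl-tRNA to the ribosome, was at 4451, 4444 and 4755 CPM (Ground) and 4785, 4503 and 4499.9 CPM (Space). Eef2, which moves the ribosome along the mRNA, was at 3465, 3495 and 3609.9 CPM (Ground) and 3728, 3517 and 3521 CPM (Space). Both were highest in Space-1 and both overlapped between groups.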

How the data were processed

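The authors deposited raw read counts in 1 table, with a column for each of 6 poly(A) RNA libraries. Per the study's methods, trimming was by cutadapt, and HISAT2 aligned the reads to mm10 with GENCODE M21. The submitters' processing notes list bcl2fastq 2.20, cutadapt 4.1, HISAT2 2.2.1 and HTSeq 2.0.2. The labels and the methods name different kits, sequencers and read layouts. Strand setting and handling of multi-mapping reads are not given in the sources used here, which bears on genes with many copies.

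The whole table was fitted with edgeR 4.0.16 under R 4.3.3 (filterByExpr, TMM scaling, 2-sided quasi-likelihood F test, Benjamini-Hochberg over all 15104 genes tested, threshold 0.05). The standard error is the log2 fold change divided by the square root of F. CPM are counts scaled by TMM library size, with a prior count of 2 for log2 CPM. Alternatives were RLE and total-count scaling, scaling without mitochondrial genes, other filters, DESeq2 1.42.0, limma-voom (limma 3.58.1), a replicate block, and leaving out libraries or paralogs. Lengths are those of the shortest principal transcript in GENCODE M21, and positions are in GRCm38 counted from 1.

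The members, the gene lists and the tests were chosen with earlier results of these data known. Genes named with values were the 3 highest and 3 lowest per length in each subunit, the 3 with the smallest p per direction, the 2 with the largest and the 2 with the smallest SD per subunit, the paralogs with their parents, the P stalk, the 5S rRNA partners, Rps6, Rpsa, Rps27a and Rps19. Any other gene was named after its values were seen. Some of the genes that this rule selects are not reported here.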

Additional observations from a re-analysis of the deposited data

How the results depend on the processing

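The count of ribosomal protein genes past the threshold was 0 under all 17 alternatives, adjusted and unadjusted, while 45 to 192 of all tested genes had an unadjusted p under 0.05. Of all tested genes 0 passed the adjusted threshold under these alternatives, so the adjusted count says nothing particular to the family. No alternative blocked on the pairs of close libraries described above. No alternative moved the median log2 fold change of the family, the subunit ratio or the share of counts by more than the SD between libraries. When 1 library was left out, the median log2 fold change ranged from -0.052 to 0.037 over the family, from -0.043 to 0.035 in the small subunit and from -0.056 to 0.044 in the large subunit. The difference in share ranged from -0.035 to 0.18 percentage points and that of the log2 subunit ratio from -0.0071 to 0.0090. With no library left out, the difference in share turned to -0.040 percentage points when mitochondrial genes were outside the total. The log2 fold change of Rpl21 turned to -0.0042 without Space-1 and was at most 0.084 with another library left out, and the other 5 genes named for the smallest p kept their direction under every alternative. Their size did not hold where 1 library was left out, with 0.0076 for Rpl30 without Space-1, 0.019 for Rps29 without Ground-2 and -0.073 for Rps19bp1 without Space-1. Leaving out Ground-3 and Space-1 together and the coding length as scale were chosen after seeing the data.

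Replicate numbers of the titles matched the pairs of close libraries only for number 2, and not for numbers 1 and 3. Deviations from the group means correlated over the ribosomal protein genes with -0.56, 0.59 and -0.59 for numbers 1 to 3. With these numbers as a replicate block 0 genes of the family passed, the median log2 fold change was -0.013, and 60 of 86 were lower.

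With 3 libraries per group and the group as the only factor, the 95% interval lay within 1.1-fold for only 4 of the 86 genes. For the others the interval also held larger changes.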
